A study of Mus musculus with 31 samples.

Results

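Semaphorins are guidance proteins, and plexins and neuropilins are the receptors that read them. The 31 genes described here are the 20 semaphorin, 9 plexin and 2 neuropilin genes of the mouse. They were chosen by family name and not by a cut on any measured value, though with earlier results of these data known. All 31 were found by Ensembl identifier among the 47729 genes of the count table, and all 31 passed the filter on low counts. They lie on many chromosomes of GRCm38, with a run of class 3 semaphorins on chromosome 5 (Sema3d, Sema3a, Sema3e and Sema3c, between 12383385 and 17730268) and a close pair on chromosome 9 (Sema3b and Sema3f, 72.3 kb apart).

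Class 3 semaphorins are secreted and act mostly through a neuropilin, which binds the ligand, and a class A plexin, which carries the signal into the cell. Classes 4 to 7 are anchored in the membrane and bind plexins directly. In the olfactory system this family is known for sorting and steering sensory axons on their way from the nasal epithelium to the bulb, and olfactory ensheathing cells (OECs), the neural crest-derived glia of that nerve, wrap those axons along the whole path.

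The study dissected nerve pieces by laser from frozen sections of Sox10:H2BVenus BAC transgenic embryos, in which a fluorescent nuclear reporter follows Sox10 and so marks OECs and Schwann cells. All groups carried this transgene. The 31 RNA-seq libraries were labelled E11.5 olfactory nerve (4), E13.5 olfactory nerve (7), E13.5 ONL (5), E16.5 olfactory nerve (4), E16.5 outer ONL (4), E16.5 inner ONL (4) and E16.5 trigeminal nerve (3), where the ONL is the olfactory nerve layer around the bulb, "outer" and "inner" are anatomical, and the trigeminal nerve supplies Schwann cells. Each library combined tissue cut from more than 1 section, and at E16.5 the regions were taken from the same cryosections, without labels that tie a library to an embryo. At E16.5 there were as many embryos as libraries of a group, whereas the 4 E11.5 libraries came from 2 embryos and the 7 and 5 libraries of E13.5 from 4 embryos each, so some early libraries shared an embryo that the labels do not name. Sharing within a group by itself makes p-values of comparisons with that group too small. Embryos shared between the E13.5 olfactory nerve and the E13.5 ONL would by themselves make p-values of that comparison too large. By label, some early groups also hold libraries that stand apart, as given below, which widens the spread. The net error of p-values by label is therefore not known. Total counts ran from 3512627 to 36705535, and at E16.5 from 13379107 to 32508725.

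The early labels could not be taken at face value. A supplementary table of the study gives a mean per gene for each of the 7 groups, and each of those means was matched by an equal-weight average of a set of deposited libraries. That set carried the labels of its group for the 4 E16.5 groups but not for the early ones: the E13.5 ONL means averaged E13.5 olfactory nerve replicate 1 with the 4 libraries that carry the E11.5 label, the E11.5 means were averages of E13.5 ONL replicates 2 to 5, and the E13.5 nerve means held E13.5 olfactory nerve replicates 2 to 7 with E13.5 ONL replicate 1. In all, 21 libraries matched their label and 10 did not. Tbr1, which marks projection neurons of the bulb, lay between 197 and 342 CPM (counts scaled to library size) in the 5 libraries averaged as E13.5 ONL and at or below 7.66 CPM in the other early libraries. Summed over 7 glial markers, the level was 4304 to 6749 CPM in those 5 libraries. It was 488 to 1047 CPM in those averaged as E13.5 nerve and 538 to 969 in those averaged as E11.5. Sox10 alone was highest in the last set, at 288 to 361 CPM. Omp, a maturation marker of sensory neurons, was at 5.76 to 13.9 CPM in those averaged as E13.5 nerve. In the other early libraries it was at most 2.01 CPM. These levels set the libraries apart as the supplementary table groups them, whereas the labels cut across those sets. Early results are given by label and, beside that, by the grouping of the supplementary table. Where these differ, the value by label rests on libraries that the study averaged under other group names. In that case the value by the table is the one that goes with these markers.

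The pieces were not pure glia. At E16.5 the summed level of 7 glial markers was 18408 to 32510 CPM in the outer ONL and 20588 to 26278 in the inner ONL, against 1657 to 3902 in the olfactory nerve and 1459 to 1798 in the trigeminal nerve. Sox10 itself was called higher in the outer ONL than in the olfactory nerve (log2 fold change 2.35 ± 0.21 SE) and the trigeminal nerve (0.91 ± 0.22). Between the nerves, Sox10 was called lower in the olfactory nerve (-1.44 ± 0.21), although the summed glial level was not lower there. The order of the 2 nerves in glial RNA thus depended on the marker. The summed level of 8 mesenchymal markers was higher in both nerves than in the inner ONL, at 24064 to 28379 CPM in the trigeminal nerve, 9507 to 16509 in the olfactory nerve, 5668 to 10855 in the outer ONL and 927 to 2180 in the inner ONL. All 7 glial and all 8 mesenchymal markers were detected in each of these groups. The 8 endothelial markers summed to 745 to 1277 CPM in the trigeminal nerve, 631 to 1199.7 in the olfactory nerve, 547 to 890 in the outer ONL and 338 to 503 in the inner ONL, and the 8 bulb neuron markers to 416 to 825 in the inner ONL and 8.42 to 157 in the outer ONL. Since the samples are bulk tissue, fewer cells of a type and less RNA per cell cannot be told apart, and the part that these cell types had in the differences below was not tested.

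Both neuropilins and most of the plexins had their highest E16.5 mean in the trigeminal nerve. Over the family 17 of 31 genes were highest there (10 semaphorins, 5 plexins and 2 neuropilins), 5 in the inner ONL, 5 in the olfactory nerve and 4 in the outer ONL. With total count scaling the count for the trigeminal nerve was 13. The share of all genes with their highest mean there was not counted. Compared per length of transcript, as mean RPKM (CPM per kilobase), Sema3b led the semaphorins of the trigeminal nerve with 80.7 and of the olfactory nerve with 11.4, whereas Sema6a led those of the outer ONL with 35.3 and of the inner ONL with 25.3. Plxnb2 led the plexins in all 4 groups, with 19.98 to 28.1 RPKM. Summed RPKM of the 20 semaphorins was 177 in the trigeminal nerve and 74.6 to 86.6 in the 3 olfactory groups, and that of the 2 neuropilins was 106 against 14.9 to 44.4.

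**Figure D1:**
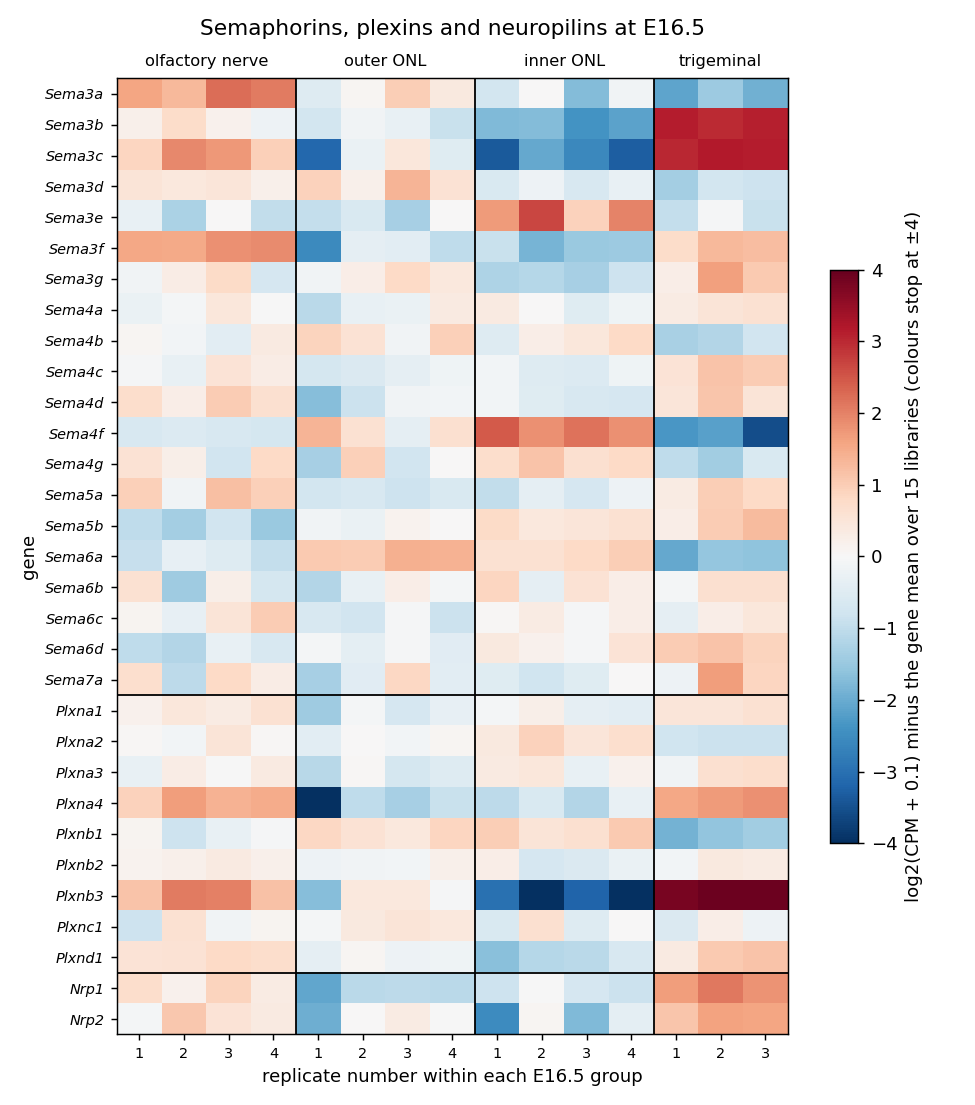
Rows are the 31 genes and columns the 15 E16.5 libraries by replicate number; colour gives log2(CPM + 0.1) minus the mean of that gene over the 15 libraries, from blue (lower) to red (higher), with colours stopping at 4 in either direction. Sema3b, Sema3c and Plxnb3 are red in all 3 trigeminal libraries and blue in the 4 inner ONL libraries, and Sema4f shows the opposite order.

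The 4 comparisons at E16.5 ask how OECs of the mucosa, OECs of the ONL and Schwann cells differ, as far as such pieces hold them. Adjusted p-values come from the quasi-likelihood test of edgeR, adjusted by Benjamini-Hochberg over all genes tested, and "called" means that this value was under 0.05. In the outer ONL against the olfactory nerve 18 of the 31 were called, 5 higher and 13 lower, where 25.8% of all 17887 genes tested were called, 11.7% higher and 14.1% lower. In the outer ONL against the trigeminal nerve 22 were called, 7 higher and 15 lower, with 31.3% of all genes called, 14.5% higher and 16.9% lower. In the olfactory nerve against the trigeminal nerve 16 were called, 8 in each direction, with 27.8% of all genes called, 13.52% higher and 14.3% lower. In the inner against the outer ONL 11 were called, 5 higher and 6 lower, with 17.5% of all genes called, 9.57% higher and 7.89% lower. The median log2 fold change of the 31 was -0.47, -0.96, -0.12 and 0.12 in that order, beside 0.01, -0.03, -0.06 and -0.05 over all genes tested. Of the 31 genes, 6 were called in all 4 comparisons (Nrp1, Sema3b, Sema3c, Sema4f, Sema5b and Plxnb3), and 5 in none (Sema4a, Sema6b, Sema7a, Plxnb2 and Plxnc1). The shares of all genes tested that were called in all 4 or in none were not counted, so these counts are not a result about the family. Nrp1, Sema3b, Sema3c, Sema5b and Plxnb3 did not keep all of these calls under the alternative fits given below. The 4 comparisons share libraries and are not independent of each other.

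**Figure D2:**
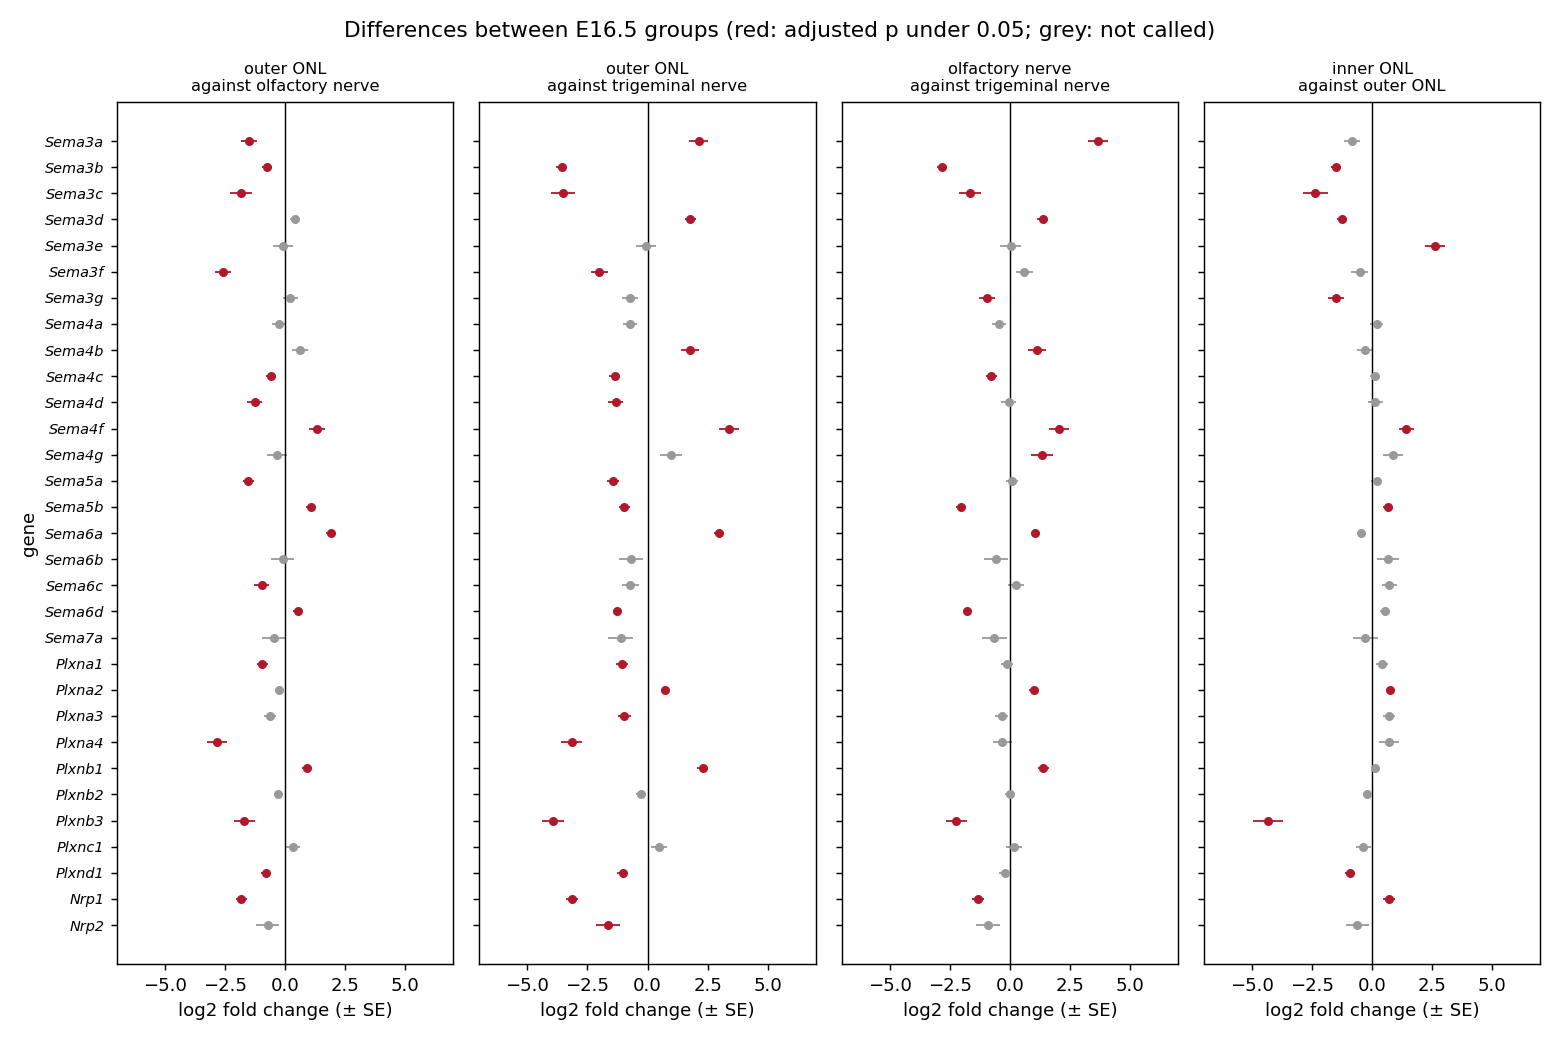
Each panel is one E16.5 comparison, with the log2 fold change of each of the 31 genes on the horizontal axis (positive where the first named group is higher) and its standard error as a bar; red points were called and grey points were not. The outer ONL panels hold 13 and 15 red points left of 0, against 5 and 7 right of it.

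Plxnb3 and Sema4f moved in opposite orders across the 4 groups, so the stretch before each start site is shown. The sequences are RefSeq's for GRCm38.p6, cut where the GENCODE gene begins, and capitals mark the motif ACAAAG, the core that Sox factors bind, searched on both strands (CTTTGT on the other). The Plxnb3 stretch is chrX:73756853-73757089 on the plus strand and the Sema4f stretch is chr6:82939770-82940019 on the minus strand.
Plxnb3: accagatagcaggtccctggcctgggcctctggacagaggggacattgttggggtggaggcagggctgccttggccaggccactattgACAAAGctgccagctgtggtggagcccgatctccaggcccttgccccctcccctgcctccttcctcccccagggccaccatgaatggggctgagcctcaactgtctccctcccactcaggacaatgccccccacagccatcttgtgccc
Sema4f: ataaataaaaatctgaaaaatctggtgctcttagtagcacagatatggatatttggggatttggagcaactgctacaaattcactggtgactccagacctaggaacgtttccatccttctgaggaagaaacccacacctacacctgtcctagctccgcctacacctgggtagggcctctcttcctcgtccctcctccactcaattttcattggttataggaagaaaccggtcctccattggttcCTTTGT
The match begins 149 bases before the end of the Plxnb3 stretch, whereas in Sema4f it is the last 6 bases. GC content was 64.6% for Plxnb3 and 46.0% for Sema4f. Among 26 family members with an entry, 5 held this motif in their 250 bases (Plxnb3, Sema3a, Sema3d, Sema4f and Sema6d), counting all entries of a gene, and it was present in 16.46% of all 32851 promoter entries and in 13.51% of the 37 entries of the family. The motif GGGCGG, the GC box, was in 73.0% of the family's entries and 32.7% of all entries; neither of the stretches shown holds it. A match is a description of the letters and not a bound site.

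The secreted ligands fell into 3 patterns. Sema3b and Sema3c were highest in the trigeminal nerve and lowest in the inner ONL. Sema3a and Sema3f were highest in the olfactory nerve. Sema3d was highest in the outer ONL and Sema3e in the inner ONL.

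Sema3b (ENSMUSG00000057969, chromosome 9, 107597674 to 107609229, minus strand) encodes a secreted semaphorin, and the study made a riboprobe for it. By in situ hybridization at E16.5 the paper found Sema3b in OECs of the mucosa and in trigeminal Schwann cells, but not in OECs of the ONL. The primers are given because they show which stretch of the transcript that probe reads, and both matched 5 GENCODE coding transcripts with a product of 800 bases, the first within the coding sequence and the second in the 3′ UTR. On Sema3b-205 the product spans bases 2042 to 2841 of 3191.
Sema3b forward: tccggaggcaagacataagg
Sema3b reverse: aggccactctttgaggctac
Its level was 404, 359 and 393 CPM in the 3 trigeminal libraries, 51.8, 75.5, 51.4 and 39.1 in the olfactory nerve, 27.5, 41.0, 37.2 and 24.3 in the outer ONL, and 13.2, 13.49, 8.54 and 10.2 in the inner ONL. The trigeminal libraries were all above the olfactory ones, and the inner ONL libraries all below the outer ones; olfactory nerve and outer ONL overlapped between 39.1 and 41.0. The log2 fold change was -2.82 ± 0.22 in the olfactory nerve (adjusted p = 9.75e-08) and -3.57 ± 0.23 in the outer ONL (adjusted p = 6.2e-09) against the trigeminal nerve, and -1.52 ± 0.21 in the inner against the outer ONL (adjusted p = 0.000143). The smaller step from olfactory nerve to outer ONL, -0.74 ± 0.21, was called at an adjusted p of 0.0121, but without olfactory nerve replicate 2 it was -0.55 with an adjusted p of 0.0506, and in a fit with all 31 libraries by label, with the same fold change and an SE of 0.45, the adjusted p was 0.295.

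Sema3c (ENSMUSG00000028780, chromosome 5, 17574281 to 17730268, plus strand), another secreted ligand of neuropilins, followed the same order. It stood at 169, 188 and 184 CPM in the trigeminal nerve, 38.6, 79.3, 69.5 and 40.8 in the olfactory nerve, 2.28, 17.3, 28.8 and 14.9 in the outer ONL, and 1.96, 4.995, 3.40 and 2.06 in the inner ONL. Groups did not overlap except for outer ONL replicate 1, which lay inside the inner ONL range. Log2 fold changes were -1.66 ± 0.47 (olfactory against trigeminal nerve, adjusted p = 0.013), -3.51 ± 0.50 (outer ONL against trigeminal nerve, adjusted p = 3.12e-05), -1.85 ± 0.46 (outer ONL against olfactory nerve, adjusted p = 0.00572) and -2.36 ± 0.50 (inner against outer ONL, adjusted p = 0.00298). Sema3g, a secreted semaphorin known from vessels, had means of 22.6 ± 10.2 (SD) CPM in the trigeminal nerve, 11.7 ± 4.90 in the olfactory nerve, 13.6 ± 3.64 in the outer ONL and 4.75 ± 0.750 in the inner ONL. Its fall of -1.51 ± 0.33 from outer to inner ONL was called (adjusted p = 0.00343). The difference of -0.95 ± 0.33 between the nerves (adjusted p = 0.0424) was lost in 5 of the fits that left out a library (olfactory nerve replicate 1, 2 or 4, trigeminal nerve replicate 2 or 3), with an adjusted p of up to 0.2765.

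Sema3a and Sema3f are repellents for many sensory axons, through Nrp1 and Nrp2 respectively. Sema3a (ENSMUSG00000028883, chromosome 5, 13125414 to 13602565, plus strand) lay at 87.6, 72.6, 140 and 124 CPM in the olfactory nerve, 20.7, 31.05, 58.0 and 38.9 in the outer ONL, 17.6, 29.9, 8.78 and 26.6 in the inner ONL, and 6.81, 10.8 and 7.72 in the trigeminal nerve. All olfactory nerve libraries were above all others. This is the reverse of Sema3b and Sema3c between the nerves: Sema3a was 3.65 ± 0.42 higher on the log2 scale in the olfactory nerve than in the trigeminal nerve (adjusted p = 4.9e-06) and 2.14 ± 0.39 higher in the outer ONL (adjusted p = 0.000408), while the outer ONL was 1.51 below the olfactory nerve, at -1.51 ± 0.34 (adjusted p = 0.00303). Sema3f was at 21.9 to 27.9 CPM in the olfactory nerve, 12.5 to 18.8 in the trigeminal nerve, 1.21 to 5.82 in the outer ONL and 2.01 to 4.05 in the inner ONL. The outer ONL did not overlap with either nerve, with log2 fold changes of -2.59 ± 0.35 against the olfactory nerve (adjusted p = 2.76e-05) and -1.997 ± 0.36 against the trigeminal nerve (adjusted p = 0.000336).

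Sema3d and Sema3e were among the genes that differed between the inner and outer ONL pieces. According to the paper, these pieces did not resolve the inner and outer OEC populations, and bulb tissue was represented in the inner ONL. Sema3d, secreted and known from neural crest and heart development, was at 46.6 to 104 CPM in the outer ONL, 47.0 to 58.4 in the olfactory nerve, 26.1 to 35.3 in the inner ONL and 15.7 to 24.2 in the trigeminal nerve. It was called lower in the inner than in the outer ONL (-1.25 ± 0.22, adjusted p = 0.0006) and higher in the outer ONL (1.78 ± 0.24, adjusted p = 1.93e-05) and the olfactory nerve (1.36 ± 0.24, adjusted p = 0.000317) than in the trigeminal nerve. Sema3e (ENSMUSG00000063531, chromosome 5, 14025276 to 14256689, plus strand) encodes a ligand that binds Plxnd1 without a neuropilin. It stood at 19.0, 37.3, 11.2 and 23.2 CPM in the inner ONL and between 2.24 and 5.90 CPM in the 11 other E16.5 libraries, so that the inner ONL did not overlap with any other group. The rise from outer to inner ONL was 2.61 ± 0.40 (adjusted p = 0.00028), and none of the other 3 comparisons was called for it. Bulb neuron markers were also highest in the inner ONL, with Tbr1 at 15.8 to 42.6 CPM there and 0.607 to 7.27 in the outer ONL. In E13.5 ONL replicates 2 to 5, Sema3e stood at 29.4 to 51.6 CPM with Tbr1 at 2.85 to 7.66. In the 5 libraries averaged as E13.5 ONL, Sema3e stood at 13.2 to 36.2 CPM with Tbr1 at 197 to 342. The part of bulb tissue in the Sema3e levels was not tested.

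**Figure D3:**
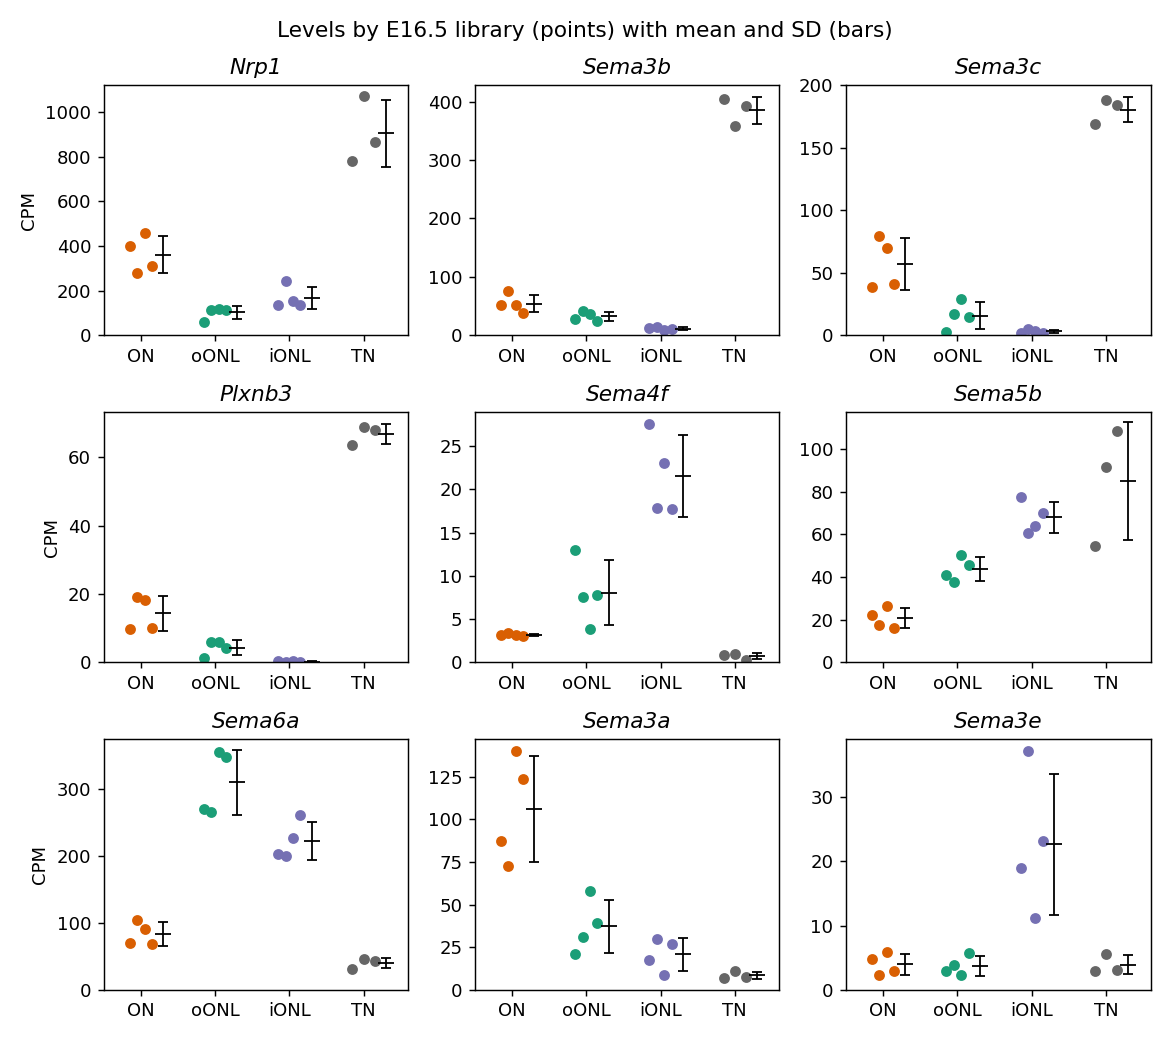
CPM of 9 genes in each E16.5 library (points) with the mean and SD of the group (bars) for olfactory nerve (ON), outer ONL (oONL), inner ONL (iONL) and trigeminal nerve (TN); each panel starts at 0 and has its own scale. The 4 inner ONL libraries of Sema3e lie between 11.2 and 37.3 CPM, above all others, and the 3 trigeminal libraries of Plxnb3 between 63.5 and 68.9.

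Among the membrane-bound ligands, Sema4f (ENSMUSG00000000627, chromosome 6, 82911885 to 82939769, minus strand), a class 4 semaphorin, ran opposite to Sema3b. It was at 27.6, 17.9, 23.0 and 17.8 CPM in the inner ONL, 13.0, 7.59, 3.86 and 7.80 in the outer ONL, 3.13, 3.40, 3.18 and 3.03 in the olfactory nerve, and 0.920, 1.04 and 0.339 in the trigeminal nerve. No 2 of these groups overlapped. Every step was called, at 1.42 ± 0.33 for inner against outer ONL (adjusted p = 0.00507), 1.34 ± 0.34 for outer ONL against olfactory nerve (adjusted p = 0.00643) and 2.05 ± 0.40 for olfactory against trigeminal nerve (adjusted p = 0.00094), with 3.38 ± 0.41 for outer ONL against trigeminal nerve (adjusted p = 6.33e-06).

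Sema4d, the ligand of Plxnb1, was lower in the outer ONL than in the olfactory nerve (-1.27 ± 0.31, adjusted p = 0.00463) and the trigeminal nerve (-1.32 ± 0.32, adjusted p = 0.00411), with means of 5.79 ± 2.61 CPM in the outer ONL, 14.0 ± 3.05 in the olfactory nerve and 14.5 ± 3.66 in the trigeminal nerve. Sema4c, a ligand of Plxnb2, was highest in the trigeminal nerve at 58.1 ± 12.2 CPM and was called lower in the outer ONL (-1.37 ± 0.22, adjusted p = 0.000103) and the olfactory nerve (-0.77 ± 0.22, adjusted p = 0.0128). Without trigeminal nerve replicate 2 the latter was -0.64, with an adjusted p of 0.0725. Its outer ONL against olfactory nerve difference (-0.60 ± 0.20, adjusted p = 0.0387) was lost in 5 fits that left out a library (olfactory nerve replicate 3 or 4, outer ONL replicate 1, 2 or 3), with an adjusted p of up to 0.154. About 7.27% of the exon length of Sema4c is shared with a gene on the other strand, and the library kit does not keep strand.
Sema4b and Sema4g, of lesser-known function, were lowest in the trigeminal nerve, at 1.53 ± 0.315 and 2.57 ± 0.736 CPM. Sema4b was called higher in the outer ONL than there (1.76 ± 0.38, adjusted p = 0.00159). For olfactory against trigeminal nerve, Sema4b (1.12 ± 0.37, adjusted p = 0.0321) lost its call without replicate 1 or 4 of the olfactory nerve, or without trigeminal nerve replicate 1 or 2 (adjusted p up to 0.106), and Sema4g (1.33 ± 0.47, adjusted p = 0.041) lost it without olfactory nerve replicate 1, 2 or 4 or any trigeminal replicate (adjusted p up to 0.138). Sema4a was called in no E16.5 comparison, with means of 8.33 to 13.9 CPM.

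The class 5 semaphorins, which carry thrombospondin repeats, split. Sema5a was at 75.8 to 193 CPM in the olfactory nerve and 105 to 166 in the trigeminal nerve, against 46.9 to 54.9 in the outer ONL and 42.3 to 73.8 in the inner ONL, and the outer ONL did not overlap with either nerve. Its log2 fold change in the outer ONL was -1.53 ± 0.24 against the olfactory nerve (adjusted p = 0.000133) and -1.43 ± 0.25 against the trigeminal nerve (adjusted p = 0.000289). Sema5b (ENSMUSG00000052133, chromosome 16, 35541145 to 35664732, plus strand) was at 54.6, 91.5 and 108 CPM in the trigeminal nerve, 77.5, 60.6, 63.7 and 69.8 in the inner ONL, 40.7, 37.9, 50.3 and 45.8 in the outer ONL, and 22.4, 17.7, 26.5 and 16.2 in the olfactory nerve. Outside the overlap of trigeminal nerve and inner ONL, the groups stood apart. It was higher in the outer ONL than in the olfactory nerve (1.08 ± 0.20, adjusted p = 0.000731) and lower than in the trigeminal nerve (-0.96 ± 0.21, adjusted p = 0.00212), and the olfactory nerve was 2.04 below the trigeminal nerve on the log2 scale, at -2.04 ± 0.22 (adjusted p = 2.28e-06). The inner ONL excess of 0.64 ± 0.20 (adjusted p = 0.035) was lost in 6 fits that left out a library (outer ONL replicate 1, 2 or 4, inner ONL replicate 1, 3 or 4), with an adjusted p of up to 0.0963.

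Of class 6, Sema6a, which binds Plxna2 and Plxna4, had 270, 266, 355 and 347 CPM in the outer ONL, 202, 200, 227 and 260 in the inner ONL, 69.9, 105, 91.4 and 67.6 in the olfactory nerve and 31.6, 45.1 and 43.0 in the trigeminal nerve, with no overlap between any groups. It was the member with the smallest adjusted p in the outer ONL against olfactory nerve comparison (log2 fold change 1.89 ± 0.18, adjusted p = 5.64e-07), and was also higher than in the trigeminal nerve in both the outer ONL (2.96 ± 0.21, adjusted p = 1.16e-08) and the olfactory nerve (1.06 ± 0.19, adjusted p = 0.00038). The step from outer to inner ONL was not called. By in situ hybridization at E16.5 the paper found Sema6a in OECs of the ONL and of the mucosa, but not in trigeminal Schwann cells. Sema6d, a ligand of Plxna1, was instead highest in the trigeminal nerve (158 ± 13.46 CPM), above the outer ONL (66.4 ± 9.57; log2 fold change -1.25 ± 0.20, adjusted p = 8.93e-05) and the olfactory nerve (46.4 ± 12.9; -1.76 ± 0.20, adjusted p = 3.89e-06). Its excess in the outer ONL over the olfactory nerve (0.51 ± 0.18, adjusted p = 0.0487) was lost without replicate 1, 2 or 4 of the olfactory nerve, or without outer ONL replicate 1, 2 or 3 (adjusted p up to 0.139), under other size factors, and with the replicate number as a block over the E16.5 libraries (adjusted p = 0.0572).
Sema6c, at 2.61 ± 0.755 CPM in the outer ONL and 5.14 ± 2.09 in the olfactory nerve, was called there (-0.98 ± 0.33, adjusted p = 0.0354), and lost the call without replicate 3 or 4 of the olfactory nerve, or without outer ONL replicate 1, 2 or 4 (adjusted p up to 0.156) and with the block in a fit of these groups alone (-0.93, adjusted p = 0.0771). Sema6b and Sema7a, the GPI-anchored class 7 member, had means of 1.41 to 2.30 and 2.09 to 5.56 CPM and were called in no E16.5 comparison.

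Nrp1 was the coreceptor with the wider range. Nrp1 (ENSMUSG00000025810, chromosome 8, 128358604 to 128503363, plus strand) binds class 3 semaphorins and also vascular endothelial growth factor. The riboprobe primers that the study designed give a product of 742 bases on Nrp1-201, from base 2311 to 3052 of 3597, ending across the stop of the coding sequence, and are shown for the same reason as those of Sema3b.
Nrp1 forward: aagacagggccgattcagga
Nrp1 reverse: gccttcacgcctctgagtaat
Its level was 780, 1072 and 865 CPM in the trigeminal nerve, 402, 278, 457 and 309 in the olfactory nerve, 137, 242, 154 and 134 in the inner ONL, and 58.5, 116, 120 and 116 in the outer ONL. All 4 groups stood apart from each other. The outer ONL was lower than the olfactory nerve (-1.82 ± 0.24, adjusted p = 2.5e-05) and the trigeminal nerve (-3.14 ± 0.26, adjusted p = 8.58e-08), and the olfactory nerve was lower than the trigeminal nerve (-1.33 ± 0.25, adjusted p = 0.000698). The inner ONL excess over the outer ONL, 0.71 ± 0.24 with an adjusted p of 0.0484, was lost in 10 of 19 alternatives. These were 6 fits that left out a library (any outer ONL replicate, inner ONL replicate 2 or 3), with log2 fold changes of 0.47 to 0.79 and adjusted p-values of 0.05355 to 0.219, and the fits with total count scaling, with upper quartile scaling, of the 2 groups alone and of all 31 libraries. Nrp2, the coreceptor of Sema3f, was at 130 to 182 CPM in the trigeminal nerve, 57.4 to 128 in the olfactory nerve, 15.5 to 75.8 in the outer ONL and 10.5 to 63.8 in the inner ONL. Only outer ONL against trigeminal nerve was called (-1.63 ± 0.50, adjusted p = 0.0182), and not without trigeminal nerve replicate 2 or 3 (adjusted p of 0.0507 and 0.0515).

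Class A plexins are the usual signalling partners of neuropilins. Plxna4 was at 21.9 to 26.4 CPM in the trigeminal nerve and 13.9 to 23.8 in the olfactory nerve, against 0.303 to 3.96 in the outer ONL and 3.24 to 6.002 in the inner ONL, and both nerves lay above both ONL groups. It fell in the outer ONL by 2.84 ± 0.42 on the log2 scale against the olfactory nerve (adjusted p = 7.86e-05) and by 3.15 ± 0.44 against the trigeminal nerve (adjusted p = 2.79e-05). Plxna4 and Sema3f thus each had their lowest 8 libraries in the ONL. Plxna1 was also lower in the outer ONL than in the olfactory nerve (-0.96 ± 0.23, adjusted p = 0.00541) and the trigeminal nerve (-1.08 ± 0.25, adjusted p = 0.00277), with 10.7% of its exon length shared with a gene on the other strand. Plxna2 had means of 63.5 ± 10.4 CPM in the inner ONL, 45.5 ± 9.36 in the olfactory nerve, 38.3 ± 5.62 in the outer ONL and 23.0 ± 0.590 in the trigeminal nerve. It was called higher in the inner than in the outer ONL (0.73 ± 0.17, adjusted p = 0.00533) and higher in the outer ONL (0.73 ± 0.18, adjusted p = 0.00516) and the olfactory nerve (0.98 ± 0.19, adjusted p = 0.000631) than in the trigeminal nerve. Plxna3 was called in the outer ONL against the trigeminal nerve (-0.96 ± 0.27, adjusted p = 0.0114), and not without trigeminal nerve replicate 2 or 3 (adjusted p of 0.05185 and 0.0616).

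Class B plexins bind membrane-bound semaphorins directly. Plxnb3 (ENSMUSG00000031385, chromosome X, 73757090 to 73772514, plus strand), a receptor of Sema5a, was at 63.5, 68.9 and 68.0 CPM in the trigeminal nerve, 9.78, 19.1, 18.4 and 10.1 in the olfactory nerve, 1.29, 5.94, 5.96 and 4.32 in the outer ONL, and 0.472, 0, 0.395 and 0 in the inner ONL, where the raw counts were 7, 0, 5 and 0. None of the 4 groups overlapped. The mean in the trigeminal nerve was 308 times that in the inner ONL, the widest span among the 31 genes, resting on those few counts. Log2 fold changes were -2.22 ± 0.44 for olfactory against trigeminal nerve (adjusted p = 0.0009), -1.70 ± 0.43 for outer ONL against olfactory nerve (adjusted p = 0.00649), -3.92 ± 0.47 for outer ONL against trigeminal nerve (adjusted p = 4.91e-06) and -4.34 ± 0.63 for inner against outer ONL (adjusted p = 0.000165).
Plxnb1, the receptor of Sema4d, ran against Plxnb3, at 67.6 to 98.8 CPM in the inner ONL and 63.9 to 86.7 in the outer ONL, above 26.9 to 51.7 in the olfactory nerve and 12.7 to 18.2 in the trigeminal nerve. Both nerves lay below both ONL groups and apart from each other. It was higher in the outer ONL than in the olfactory nerve (0.91 ± 0.20, adjusted p = 0.00237) and the trigeminal nerve (2.30 ± 0.23, adjusted p = 6.43e-07) and higher in the olfactory than in the trigeminal nerve (1.39 ± 0.22, adjusted p = 0.000134). Its ligand gene Sema4d, given above, was lower in the outer ONL than in both nerves. Plxnb2, a receptor of Sema4c, had means of 154 to 217 CPM and was called in no E16.5 comparison. Plxnd1, the receptor of Sema3e, known from vessels, was at 60.3 ± 16.03 CPM in the trigeminal nerve, 51.6 ± 3.98 in the olfactory nerve, 29.4 ± 3.91 in the outer ONL and 15.3 ± 4.29 in the inner ONL. It was called lower in the outer ONL than in the olfactory nerve (-0.81 ± 0.20, adjusted p = 0.00623) and the trigeminal nerve (-1.04 ± 0.22, adjusted p = 0.00124), and lower in the inner than in the outer ONL (-0.94 ± 0.21, adjusted p = 0.00371), the reverse of Sema3e. The endothelial marker Pecam1 fell in the same order, from a mean of 190 CPM in the trigeminal nerve to 162, 72.2 and 43.4. So did the summed means of the 8 endothelial markers, at 1012, 900, 677 and 398 CPM. Kdr, another gene of endothelium, did not. Its means were 130 CPM in the olfactory nerve, 124 in the outer ONL, 107 in the trigeminal nerve and 78.0 in the inner ONL. The part of vessels in the Plxnd1 differences was not tested. Plxnc1, the receptor of Sema7a, was called in no E16.5 comparison, with means of 14.7 to 20.3 CPM.

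A list of 55 other genes of the pathway held adhesion coreceptors, intracellular effectors and growth factor partners, and was also chosen with earlier results of these data known. In the outer ONL against the olfactory nerve 15 of 55 were called, 6 higher and 9 lower, a share of 27.3% near the background of 25.8%. The counts were 24 (8 higher, 16 lower; 43.6%, beside 31.3% of all genes) for outer ONL against trigeminal nerve, 22 (6 and 16; 40%, beside 27.8%) for olfactory against trigeminal nerve, and 16 (13 and 3; 29.1%, beside 17.5%) for inner against outer ONL. Mical2, an enzyme that oxidises actin, was at 23.4 ± 7.53 CPM in the olfactory nerve and 31.3 ± 7.67 in the trigeminal nerve against 3.14 ± 1.30 in the outer ONL, with log2 fold changes of -2.89 ± 0.37 (adjusted p = 1.74e-05) and -3.31 ± 0.39 (adjusted p = 4.16e-06). Met, the hepatocyte growth factor receptor, which can pair with class B plexins, had the same order (11.9 ± 2.44, 15.9 ± 1.59 and 2.73 ± 1.24 CPM; -2.11 ± 0.35 and -2.53 ± 0.37), as had the growth factor Vegfc, a ligand of Nrp2 (18.3 ± 1.81, 21.3 ± 7.96 and 5.03 ± 2.21 CPM), which was called against the olfactory nerve at -1.85 ± 0.33. The adhesion molecule Chl1 was higher in the outer ONL (84.0 ± 17.4 CPM) than in the olfactory nerve (20.6 ± 3.78 CPM), at 2.03 ± 0.20 (adjusted p = 1.28e-06). Plxdc1, a membrane protein with a plexin-like domain (2.01 ± 0.60), lost its call there without replicate 1 or 3 of the olfactory nerve, or without outer ONL replicate 3 (adjusted p up to 0.0581) and with the block in a fit of these groups alone (2.24, adjusted p = 0.0702); it was 3.27 lower in the olfactory than in the trigeminal nerve, at -3.27 ± 0.62 (adjusted p = 0.000693).

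In the inner ONL, 13 genes of this list (23.6%) were called higher than in the outer ONL, beside 9.57% of all genes. Cntn2, an axonal adhesion molecule, had a mean of 102 ± 61.0 CPM there, 10.9 ± 11.6 in the outer ONL, 7.27 ± 2.45 in the olfactory nerve and 0.223 ± 0.133 in the trigeminal nerve, and was called at 3.21 ± 0.67 for inner against outer ONL (adjusted p = 0.00254), 5.58 ± 1.00 for outer ONL against trigeminal nerve (adjusted p = 0.000322) and 4.98 ± 1.00 for olfactory against trigeminal nerve (adjusted p = 0.00105). The collapsin response mediators Dpysl5 (2.93 ± 0.54, adjusted p = 0.00105) and Crmp1 (2.87 ± 0.50, adjusted p = 0.000671) also rose in the inner ONL. Dpysl3, of the same family, was 2.50 ± 0.24 higher in the olfactory nerve (adjusted p = 9.4e-07) and 1.83 ± 0.24 higher in the outer ONL (adjusted p = 1.16e-05) than in the trigeminal nerve. Dpysl5 was 1.72 ± 0.57 higher in the olfactory than in the trigeminal nerve (adjusted p = 0.0328), but not without olfactory nerve replicate 1 or 4 or any trigeminal replicate (adjusted p up to 0.109). Cdk5r1, the activator of the kinase Cdk5, was higher in the outer ONL than in the olfactory nerve (1.94 ± 0.44, adjusted p = 0.00306) and the trigeminal nerve (3.65 ± 0.54, adjusted p = 4.54e-05). The summed level of 6 genes listed as sensory neuron markers was 1495 to 3114 CPM in the inner ONL, 762 to 1331 in the olfactory nerve and 141 to 838 in the outer ONL. This sum did not follow Omp in the early libraries. It was 2667 to 4405 CPM in those averaged as E13.5 ONL, where Omp was at most 1.05. In those averaged as E13.5 nerve it was 914 to 1767 CPM, where Omp was 5.76 to 13.9. The sum is therefore not taken as particular to sensory neurons.
L1cam, an axonal adhesion molecule that associates with Nrp1, was lower in the outer ONL than in the trigeminal nerve (-2.38 ± 0.43, adjusted p = 0.000372). The small GTPases Rap1a (-2.23 ± 0.22, adjusted p = 9.35e-07) and Rap1b (-1.22 ± 0.23, adjusted p = 0.000722), on which plexins act, were lower in the olfactory than in the trigeminal nerve. Rras, a related GTPase, was lower in the inner than in the outer ONL (-1.06 ± 0.23, adjusted p = 0.00343). So were the kinase Fes (-0.84 ± 0.25, adjusted p = 0.027; lost without outer ONL replicate 2 or 4 or inner ONL replicate 1 or 3, with an adjusted p of up to 0.0886) and Plxdc2 (-0.71 ± 0.19, adjusted p = 0.0122; 0.0502 without inner ONL replicate 2).

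In a fit of all 31 libraries by label, 26 of the E16.5 calls described here were lost, 21 of them of semaphorin, plexin or neuropilin genes. Their log2 fold changes moved by at most 0.0071, and their SEs were 1.12 to 2.47 times as large. For outer ONL against olfactory nerve these were, beside Sema3b, Sema3c (adjusted p = 0.0792), Plxnd1 (0.0913), Met (0.094), Sema5b (0.153), Sema6c (0.155), Cdk5r1 (0.165), Plxdc1 (0.218), Sema4c (0.24), Plxnb3 (0.291) and Sema6d (0.314). For outer ONL against trigeminal nerve they were Sema5a (adjusted p = 0.0614) and Sema5b (0.215), and for olfactory against trigeminal nerve Sema4b (0.0945), Sema3c (0.124), Sema4c (0.131), Plxnb3 (0.156) and Sema3g (0.364). For inner against outer ONL they were Sema3c (adjusted p = 0.0506), Plxna2 (0.053), Fes (0.0607), Plxnd1 (0.0739), Nrp1 (0.109), Plxdc2 (0.154), Sema3g (0.169) and Sema5b (0.552). With the same 31 libraries grouped by the supplementary table, 21.7% of all genes were called in outer ONL against olfactory nerve, beside 15.8% by label. In inner against outer ONL these shares were 14.1% and 8.55%. Under the supplementary grouping Sema3b, Sema4c, Sema6c and Plxdc1 lost their call for outer ONL against olfactory nerve (adjusted p = 0.0694 to 0.169). Over all alternatives, Sema6d lost its call for outer ONL against olfactory nerve in 13 of 19, Sema6c in 10 and Sema4c in 9. For olfactory against trigeminal nerve Sema3g lost it in 11 of 18, Sema4b in 9 and Sema4g in 8, and for inner against outer ONL Sema5b lost it in 8 of 19 and Fes in 7.

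In the early libraries several genes differed between libraries that share a label, as the plot of early libraries shows. Sema3e was at 42.2, 40.5, 29.4 and 51.6 CPM in E13.5 ONL replicates 2 to 5, at 13.2 to 36.2 CPM in the 5 libraries averaged as E13.5 ONL, and at 1.27 to 5.25 CPM in the 7 averaged as E13.5 nerve. Plxnb3 was at 3.21 to 6.31 CPM (median 5.66) in the last set and at 0 to 2.62 in the other 9. Sema5a was at 75.5 to 168 CPM (median 139) in those 7, at 31.6 to 115 in the 5 and at 13.9 to 20.2 in the 4. Sema6d ran the other way from the 5 libraries down, with 77.7 to 98.9, 36.6 to 50.9 and 11.1 to 18.8 CPM, and Plxnc1 and Sema5b had the same order, the former at 23.9 to 41.9, 8.17 to 19.8 and 2.78 to 4.19 CPM and the latter at 29.9 to 77.6, 11.6 to 26.8 and 1.92 to 5.28 CPM. For Sema6d, Plxnc1 and Sema5b the 3 sets did not overlap.

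**Figure D4:**
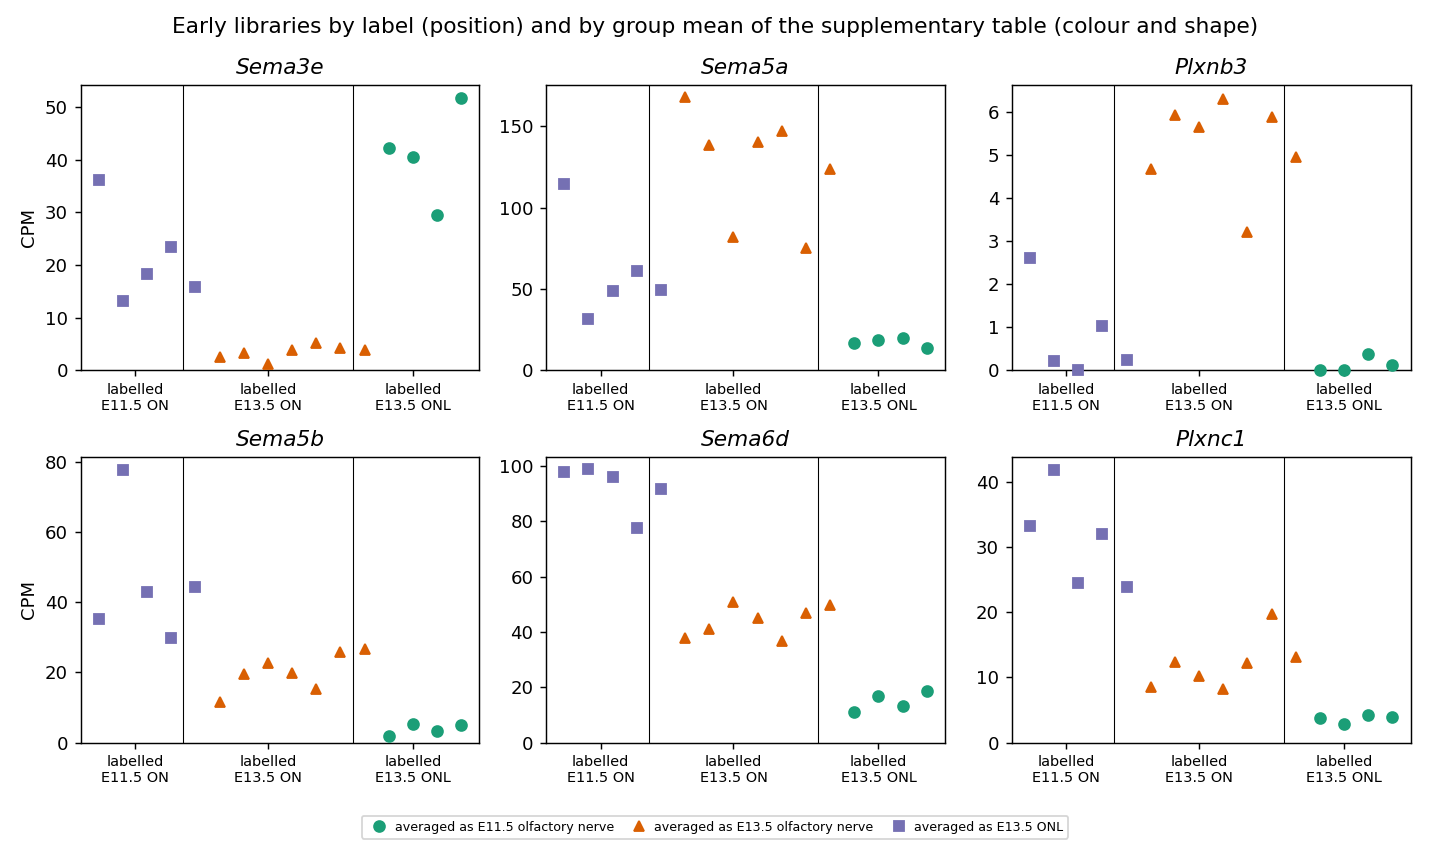
CPM of 6 genes in the 16 early libraries, placed by their label, with colour and shape giving the group mean of the supplementary table that each library belongs to. For Sema6d, Plxnc1 and Sema5b the 3 colours do not overlap, while the first library labelled E13.5 olfactory nerve and the first labelled E13.5 ONL lie apart from the libraries that share their label.

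For E13.5 ONL against E13.5 olfactory nerve, 12 of the 31 genes were called by label, 5 higher and 7 lower (17.95% of all 19353 genes were called, 8.80% higher and 9.15% lower), and 20 by the supplementary table, 12 higher and 8 lower (31.5% of all genes, 15.03% higher and 16.49% lower). Without E13.5 ONL replicate 4 or 5 the first count was 7, where 9.77% and 11.4% of all genes were called, and it was 3 in a fit of these groups alone, where 4.46% were. Without E13.5 olfactory nerve replicate 1 it was 18, and without E13.5 ONL replicate 1 it was 16, where 22.5% and 31.3% of all genes were called. Sema3e was higher in the ONL by either grouping (2.67 ± 0.49, adjusted p = 0.000928, by label and 2.59 ± 0.32, adjusted p = 1.95e-07, by the table), as was Sema4a (0.96 ± 0.34 and 1.79 ± 0.27). Sema5a (-1.58 ± 0.44 and -1.05 ± 0.25), Sema3a (-1.32 ± 0.42 and -1.10 ± 0.33) and Plxnd1 (-1.07 ± 0.28 and -0.67 ± 0.23) were lower by either. For 5 genes that were called by both groupings the direction turned. Sema6d was lower by label (-1.20 ± 0.27, adjusted p = 0.00476) and higher by the table (1.07 ± 0.14, adjusted p = 6.3e-07). Plxnc1 (-1.32 ± 0.35 and 1.37 ± 0.25), Sema5b (-1.47 ± 0.44 and 1.19 ± 0.23) and Plxna2 (-0.76 ± 0.20 and 1.10 ± 0.13) turned the same way, and Sema4d the other (1.11 ± 0.27 and -0.73 ± 0.26). Sema4c (1.34 ± 0.27, adjusted p = 0.00182; -0.10 ± 0.24 by the table) and Plxnb1 (0.54 ± 0.19 and 0.30 ± 0.15) were called by label alone. Called by the table alone were Plxnb3 (-3.28 ± 0.67, adjusted p = 0.000269; -2.28 ± 0.95 by label), Sema3f (-1.49 ± 0.26), Plxnb2 (-0.71 ± 0.14), Nrp1 (-0.54 ± 0.20), Nrp2 (1.34 ± 0.32), Sema4f (1.24 ± 0.26), Sema6c (1.48 ± 0.30), Plxna3 (1.11 ± 0.19), Sema6a (0.76 ± 0.13) and Sema6b (1.35 ± 0.46).

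For E13.5 against E11.5 olfactory nerve, 10 were called by label, 2 higher and 8 lower (17.4% of all genes, 9.92% higher and 7.53% lower), and 19 by the table, 11 higher and 8 lower (36.5% of all genes, 19.8% higher and 16.7% lower). The count by label was 15 without E13.5 olfactory nerve replicate 1 and 7 without E11.5 olfactory nerve replicate 2, where 25.9% and 11.9% of all genes were called. Sema3e was lower on the E13.5 side by either grouping (-2.09 ± 0.51, adjusted p = 0.00561, and -3.55 ± 0.34, adjusted p = 2.13e-09), as were Sema4a (-1.50 ± 0.36 and -1.43 ± 0.28), Plxna3 (-0.95 ± 0.24 and -0.74 ± 0.20) and Sema6c (-1.15 ± 0.38 and -0.89 ± 0.32). By the table this was a fall with stage. By label, the E11.5 side held libraries averaged as E13.5 ONL, so those values are not taken as a change with stage. By the table Plxnb3 rose by 5.51 ± 0.79 (adjusted p = 2.59e-06; 4 counts of 0, 0, 9 and 4 on the lower side), Sema3c by 3.12 ± 0.48 (adjusted p = 8.07e-06), Sema5a by 2.84 ± 0.30 (adjusted p = 1.18e-08) and Sema5b by 2.38 ± 0.29 (adjusted p = 1.62e-07). By label these were 2.65 ± 1.16, 0.62 ± 0.66, 0.85 ± 0.47 and -1.03 ± 0.43, with adjusted p-values of 0.116, 0.575, 0.225 and 0.0998. Sema6d, Plxnc1 and Plxna2 again turned, at -0.89 ± 0.28, -1.27 ± 0.35 and -0.96 ± 0.21 by label and 1.55 ± 0.17, 1.72 ± 0.29 and 0.81 ± 0.15 by the table. Called by label alone were Sema3f (1.33 ± 0.34; 0.64 ± 0.26 by the table), Plxnb2 (0.68 ± 0.18; -0.24 ± 0.15) and Sema6a (-0.64 ± 0.17; -0.11 ± 0.14). Called by the table alone were also Sema3a (2.02 ± 0.37; 0.97 ± 0.45 by label), Sema3b (1.76 ± 0.37; 0.47 ± 0.44), Plxnd1 (1.46 ± 0.25; 0.69 ± 0.30), Plxna4 (1.21 ± 0.33; 0.35 ± 0.39), Sema4c (-1.47 ± 0.24; -0.060 ± 0.30), Sema4d (-1.09 ± 0.26; 0.57 ± 0.30), Nrp2 (-1.02 ± 0.34; -1.03 ± 0.40) and Plxnb1 (-0.81 ± 0.16; -0.20 ± 0.20).

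For E16.5 against E13.5 olfactory nerve, 10 were called by label, 8 higher and 2 lower (24.9% of all genes, 12.7% higher and 12.2% lower), and 11 by the table, all higher (28.4% of all genes, 15.6% higher and 12.8% lower). The count by label was 5 without E16.5 olfactory nerve replicate 2 or 3, where 19.6% and 17.5% of all genes were called, and with the size factors of DESeq2 it was 8, all higher, where 24.8% were. Sema3b rose most (2.97 ± 0.40, adjusted p = 5.6e-06, by label and 2.88 ± 0.32, adjusted p = 1.07e-07, by the table), from 3.90 to 9.48 CPM in the 7 libraries labelled E13.5 olfactory nerve (median 7.87) to 39.1 to 75.5 CPM. Sema3c (1.90 ± 0.60 and 1.64 ± 0.39), Sema3g (1.72 ± 0.55 and 1.67 ± 0.52), Sema4c (1.25 ± 0.28 and 1.19 ± 0.25), Sema3d (1.06 ± 0.24 and 0.99 ± 0.24), Sema4a (1.05 ± 0.36 and 1.38 ± 0.28), Nrp1 (0.93 ± 0.23 and 0.85 ± 0.21) and Plxnb2 (0.68 ± 0.17 and 0.63 ± 0.15) rose by both groupings. By label alone Sema4f (-0.95 ± 0.35; -0.59 ± 0.29 by the table) and Sema4g (-0.96 ± 0.36; -0.79 ± 0.34) were called lower. By the table alone Plxnb3 (1.46 ± 0.51; 1.67 ± 0.86 by label), Sema6a (0.49 ± 0.14; 0.36 ± 0.17) and Plxna2 (0.39 ± 0.14; 0.21 ± 0.21) were called higher. Mesenchymal markers summed to 2489.6 to 6399.97 CPM in the libraries labelled E13.5 olfactory nerve and to 9507 to 16509 at E16.5.

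For E16.5 outer ONL against E13.5 ONL, 17 were called by label, 8 higher and 9 lower (35.2% of all genes, 18.1% higher and 17.1% lower), and 19 by the table, 8 higher and 11 lower (41.7% of all genes, 22.2% higher and 19.5% lower). By label, the E13.5 ONL side held no library that the study averaged as E13.5 ONL. Sema3b (3.34 ± 0.46 and 2.70 ± 0.37), Sema3g (2.64 ± 0.62 and 2.71 ± 0.59), Sema6a (2.28 ± 0.18 and 1.62 ± 0.15) and Sema3d (1.46 ± 0.27 and 1.53 ± 0.26) were higher in the E16.5 outer ONL by both groupings. Sema3e (-3.18 ± 0.62 and -2.50 ± 0.39), Plxna4 (-2.53 ± 0.45 and -2.75 ± 0.38), Sema6c (-2.25 ± 0.45 and -2.88 ± 0.39), Sema3f (-2.68 ± 0.38 and -1.59 ± 0.30), Plxna1 (-1.72 ± 0.22 and -1.06 ± 0.21), Plxna3 (-1.05 ± 0.27 and -1.51 ± 0.23) and Sema4g (-1.09 ± 0.38 and -1.85 ± 0.37) were lower there by both. Sema6d (1.61 ± 0.30 and -0.48 ± 0.17) and Plxna2 (0.72 ± 0.22 and -0.96 ± 0.16) were called in opposite directions by the 2 groupings. Called by label alone were Sema5b (2.41 ± 0.48; -0.080 ± 0.27 by the table), Plxnc1 (1.89 ± 0.39; -0.62 ± 0.28), Sema4d (-2.29 ± 0.33; -0.59 ± 0.30) and Nrp1 (-1.11 ± 0.26; -0.42 ± 0.23). Called by the table alone were Plxnb3 (3.03 ± 0.71; 2.23 ± 1.02 by label), Plxnb2 (1.05 ± 0.16; 0.18 ± 0.18), Sema4c (0.68 ± 0.27; -0.69 ± 0.31), Plxnb1 (0.63 ± 0.18; 0.28 ± 0.21), Sema6b (-1.59 ± 0.55; -1.23 ± 0.60) and Nrp2 (-1.46 ± 0.38; -1.04 ± 0.44).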

How the data were processed

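RNA from laser-microdissected nerve pieces was amplified with SMART-seq V4 and sequenced as paired-end Nextera XT libraries, a kit that does not keep strand. According to the submitters' processing notes and the study's methods, the authors aligned reads with TopHat2 2.1.0 to mm10 and counted them per Ensembl gene with HTSeq. The deposited values are these raw counts; 1 blank row was removed and no sample column was unused. Members and lists were chosen with earlier results of these data known.

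Genes were filtered with edgeR's filterByExpr, scaled by TMM and tested with edgeR 4.0.16 (R 4.3.3) quasi-likelihood F tests with Benjamini-Hochberg adjustment, using the 15 E16.5 libraries for E16.5 comparisons and all 31 by label for the others. SE is the absolute log2 fold change divided by the square root of F. RPKM used merged exon lengths of GENCODE M21. All 31 members are described by level. Fold changes are given for called pairs (early comparisons: called in either grouping), and of the pathway list for up to 3 called genes with the largest rise and fall per comparison. Glial, neuronal, epithelial, bulb, vascular, mesenchymal and macrophage marker lists were summed. P-values measure the spread between these libraries. No library pair was identical, and depth (total counts 3512627 to 36705535) limits genes with few counts. Epithelium progenitor markers summed to 94.3 to 315 CPM in the E16.5 olfactory nerve and to at most 11.0 CPM in the other E16.5 groups. Mural markers summed to 728 to 3121 CPM in the olfactory nerve, 884 to 1543 in the trigeminal nerve and 152 to 452 in the ONL, and macrophage markers to 318 to 647, 422 to 510 and 148 to 292. Comparison of paralogs by protein sequence was not done here.

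The E16.5 regions came from the same cryosections, but the labels name no embryo. Between the outer ONL and the olfactory nerve, residuals of same-numbered libraries correlated at 0.217 to 0.473 over 12161 genes. All 4 of these pairs were above 0.1, a rule that other pairs of E16.5 groups did not meet. By this rule the replicate numbers were read as pairs in that comparison only. Libraries of these 2 groups with different numbers correlated at -0.356 to 0.346. Since the ranges overlap, the correlations do not settle whether equal numbers mean a shared embryo. The main test did not use the pairing, whereas the fits with the replicate number as a block did. Alternatives were other size factors, total count and upper quartile scaling, DESeq2 1.42.0, no filter or a stricter one (CPM of 1), the 2 groups alone, all 31 libraries, the replicate number as a block, the supplementary grouping, and each library left out; the supplementary grouping with each library left out was added after seeing the data.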

Additional observations from a re-analysis of the deposited data

Results flagged for a closer look

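Of 186 levels of the 31 genes in groups of 4 to 7 libraries, 25 (13.44%) had a library far from the others of its group, where chance marks about 1 in 20 groups. The library was E13.5 olfactory nerve replicate 1 in 11 of them and E13.5 ONL replicate 1 in 8, and both are among the 10 libraries whose label and supplementary-table group differ.

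E13.5 olfactory nerve replicate 1 was highest of its 7 for Sema3e (15.8 CPM, others 1.27 to 5.25), Sema4a (11.997, others 1.64 to 5.98), Sema4f (12.6, others 4.39 to 5.60), Sema6a (100.2, others 46.3 to 64.5), Sema6b (6.03, others 0.510 to 2.54), Sema6c (21.3, others 4.41 to 11.1), Sema6d (91.6, others 36.6 to 50.9), Plxna2 (68.4, others 30.9 to 43.0) and Nrp2 (160.1, others 36.3 to 83.3). The same library was lowest for Plxnb2 (90.2 CPM, others 130 to 158) and Nrp1 (102 CPM, others 185 to 236).

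E13.5 ONL replicate 1 was highest of its 5 for Sema3c (27.5 CPM, others 0.742 to 4.23), Sema5a (124, others 13.9 to 20.2), Sema5b (26.8, others 1.92 to 5.28), Sema6d (49.6, others 11.1 to 18.8), Plxna4 (36.4, others 7.81 to 12.7), Plxnb3 (4.95, others 0 to 0.377) and Plxnc1 (13.2, others 2.78 to 4.19), and lowest for Plxnb1 (30.3 CPM, others 65.4 to 77.1).

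Single libraries stood apart for 6 other levels. E11.5 olfactory nerve replicate 4 was low for Sema6d (77.7 CPM, others 96.2 to 98.9), and replicate 2 was high for Plxnb2 (108 CPM, others 74.2 to 78.8). E13.5 olfactory nerve replicate 7 was high for Sema3g (7.80 CPM, others 1.82 to 3.88). E13.5 ONL replicate 2 was high for Sema4f (9.35 CPM, others 3.40 to 5.11) and replicate 3 for Sema6a (82.9 CPM, others 56.5 to 63.3). At E16.5, outer ONL replicate 1 was low for Nrp1 (58.5 CPM, others 116 to 120).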

How the results depend on the processing

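No fold change named at E16.5 turned direction under any alternative, and 10 of 18, 16 of 22, 10 of 16 and 5 of 11 members kept their call under every alternative in outer ONL against olfactory nerve, outer ONL against trigeminal nerve, olfactory against trigeminal nerve and inner against outer ONL. The share of all called genes that kept their call in this way was not counted. With all 31 libraries fitted by label, 10 members and 8 pathway genes were called in outer ONL against olfactory nerve, where 15.8% of all genes were, and 5 members in inner against outer ONL, where 8.55% were. The fold changes of the lost calls moved by at most 0.0071 and their SEs were 1.12 to 2.47 times as large. Grouped by the supplementary table, the same libraries gave 21.7% and 14.1% of all genes called in these comparisons. Leaving out 1 library gave 15 to 17, 20 to 23, 12 to 16 and 9 to 12 members in the 4 E16.5 comparisons, and 10 to 18, 20 to 25, 16 to 22 and 13 to 17 pathway genes.

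With the replicate number as a block, outer ONL against olfactory nerve had 18 members called, or 19 in a fit of the 2 groups alone, and 17 or 21 pathway genes. The calls of Sema6d (adjusted p = 0.0572), Sema6c (adjusted p = 0.0771) and Plxdc1 (adjusted p = 0.0702) were the named ones it ended there, the first over the E16.5 libraries and the others with the 2 groups alone. In the other E16.5 comparisons, where the numbers were not taken to pair, the block gave 22 or 21, 15 or 14 and 13 or 12 members. For E13.5 ONL against olfactory nerve, edgeR called 3 members with the 2 groups alone and 0 with the replicate block, where 12 had an unadjusted p under 0.05 and 4 of all 16604 genes were called, and DESeq2 without the block called 14.

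The supplementary grouping gave 20 members for E13.5 ONL against olfactory nerve and 19 for E13.5 against E11.5, and 13 members in place of 8 had their highest early mean in the E13.5 ONL. Directions turned under it for E13.5 ONL against olfactory nerve in Sema4c (-0.10), Sema4d (-0.73), Sema4f (1.24), Sema5b (1.19), Sema6a (0.76; 0.025 with upper quartile scaling), Sema6d (1.07), Plxna2 (1.10), Plxnb2 (-0.71), Plxnc1 (1.37) and Nrp1 (-0.54). For E13.5 against E11.5 they turned in Sema4d (-1.09), Sema5b (2.38), Sema6d (1.55), Plxna2 (0.81), Plxnb2 (-0.24) and Plxnc1 (1.72), and for outer ONL against E13.5 ONL in Sema4c (0.68), Sema5b (-0.080), Sema6d (-0.48), Plxna2 (-0.96) and Plxnc1 (-0.62). Leaving out 1 library gave 7 to 18, 7 to 15, 5 to 10 and 16 to 23 members in the 4 early comparisons by label, and turned E13.5 ONL against olfactory nerve for Sema4f (-0.59 to 0.032) and Sema6a (-0.13 to 0.12) and E13.5 against E11.5 for Sema4c (-0.22 to 0.12). The split of E13.5 ONL against olfactory nerve was 3 higher and 7 lower with the size factors of DESeq2, and that of E16.5 against E13.5 nerve was 8 and 0. Total count scaling moved the median of all genes to 0.22 in olfactory against trigeminal nerve.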
